A study of Homo sapiens with 4 samples.

Results

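The genes of the Polycomb repressive complexes were examined in VCaP cells after transfection with siZBTB7A, an siRNA against the zinc finger transcriptional repressor ZBTB7A, or with siNTC, a non-targeting control siRNA. The set held 9 genes of 60308 gene identifiers counted: EZH2, EZH1, EED, SUZ12 and JARID2 of Polycomb repressive complex 2 (PRC2), and RING1, RNF2, BMI1 and CBX2 of Polycomb repressive complex 1 (PRC1). They were matched by symbol, and the set was chosen with earlier results of these data known. VCaP cells come from a human prostate cancer metastasis and have a fusion of TMPRSS2 with ERG, and both groups were grown in medium with 10% serum. The siRNA sequences, their dose and the time after transfection are not given in the sources used here. Each group had 2 count tables, numbered 1 and 2.

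PRC2 is the enzyme complex that methylates lysine 27 of histone H3, and PRC1 ubiquitinates histone H2A and compacts chromatin. Together they keep developmental genes silent. In prostate cancer, EZH2 is known for high levels in advanced disease, and it has been described both as a silencer of differentiation genes and as an activator with a role outside PRC2.

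The 2 tables of a group differed by no more than sampling noise. Divided by its degrees of freedom, the chi-square over genes came to 0.995 for the siZBTB7A tables (12645 genes, p = 0.659) and 0.993 for the siNTC tables (12762 genes, p = 0.722), against 3.50 to 3.64 between tables of different groups. The tables of a group were therefore counted as 1 library, so each group is n = 1 and the comparison has no replicate check. Gene reads numbered 5556061 and 5745862 in the siZBTB7A tables, against 5737738 and 5927656 in the siNTC tables. Genes count as called, higher or lower, if edgeR's quasi-likelihood test gave them an adjusted p (Benjamini-Hochberg, over all genes) under 0.05, and such a call compares the 2 libraries and not the conditions. Levels are CPM on TMM-adjusted totals of gene reads, folds are siZBTB7A over siNTC from the summed tables, and the range after a fold is its exact 95% interval for counting error only. In bulk RNA, fewer cells that express a gene and less RNA per cell cannot be told apart. The 8 listed prostate luminal markers, among them ERG of the fusion, summed to 5795 and 5774 CPM in siZBTB7A and 5594 and 5553 CPM in siNTC. Most of each sum was KLK2, at 4005 and 4042 CPM in siZBTB7A and 3941 and 3921 CPM in siNTC. Of these 8, 3 were called higher and 0 lower, beside 2.25% and 2.72% of all genes tested. The 3 were KLK2 at 1.02 (1.01 to 1.04), HOXB13 at 1.08 (1.04 to 1.13) and FOLH1 at 1.16 (1.11 to 1.21). KLK3 at 1.11, KRT8 at 1.11, KRT18 at 1.09, ERG at 1.01 and TMPRSS2 at 0.995 were not called. Mitochondrial genes took 20.2% of the gene reads in siZBTB7A and 17.1% in siNTC. With these genes left out of the fit, 0 of the 9 Polycomb genes was called. To 2 decimals, the log2 fold of each was the same with and without them, from -0.34 for EED to 0.38 for EZH1. Any other part of this difference in the Polycomb folds was not tested. The 3 leukocyte markers had 1 read in the siZBTB7A tables and 2 in the siNTC tables.

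The targeted gene was counted with 12.8 and 13.1 CPM in the siZBTB7A tables, against 15.6 and 19.2 CPM in the siNTC tables. ZBTB7A was at a fold of 0.743 (0.596 to 0.924) and was not called (edgeR adjusted p = 0.0969). Both siZBTB7A tables lay below both siNTC tables, but the difference in the targeted gene did not pass the test, so the Polycomb values below are those of the library labelled siZBTB7A.

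None (0) of the 9 Polycomb genes was called higher or lower, beside 4.97% of the 12848 genes tested (2.25% higher and 2.72% lower). All 9 passed the filter on low counts. Their smallest adjusted p was 0.122 with edgeR. At an unadjusted p under 0.05 there were 4, EZH1 and BMI1 on the higher side and EED and SUZ12 on the lower side, where 17.9% of all genes tested stood past that limit (9.02% on the higher and 8.9% on the lower side). Among the 7513 genes whose summed reads fell in the members' own range of 222 to 2291, these shares were 3.71% and 16.9%. The exact binomial test and limma-voom also called 0, and DESeq2 gave no adjusted p for any of the 9. The median log2 fold was -0.08 over the 9 genes, with 4 folds above 1 and 5 below, and 0.0008 over all genes tested. The tables of the groups did not overlap in 5 of the 9 (2 above, 3 below), and in 46.9% of all genes tested.

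**Figure D1:**
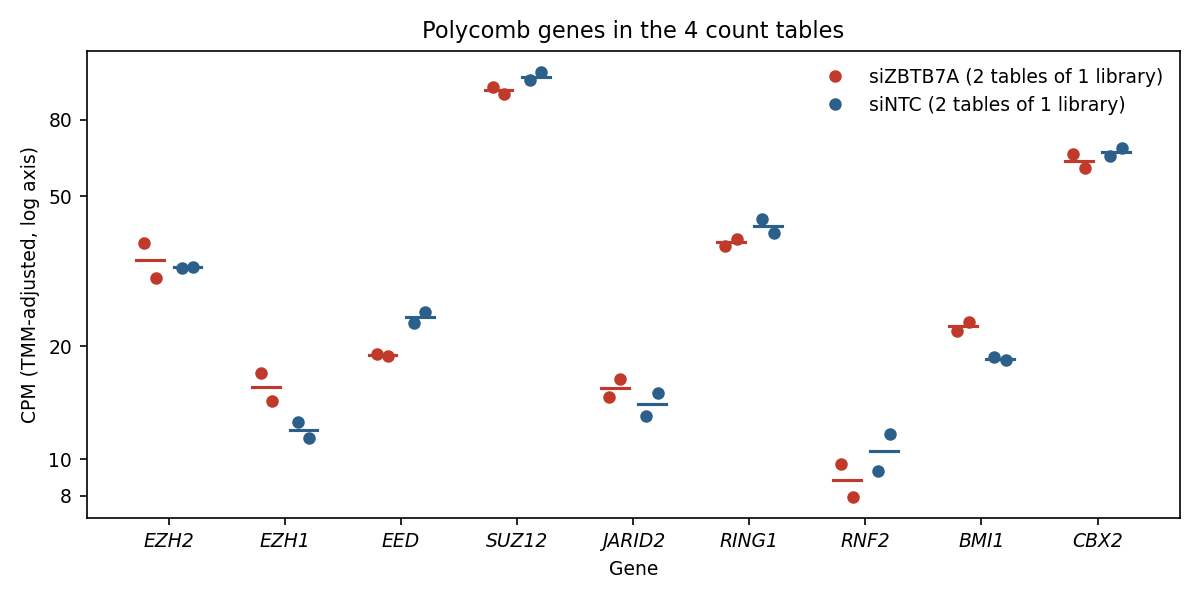
CPM of the 9 Polycomb genes (vertical log axis) in the 2 siZBTB7A tables (red, left) and the 2 siNTC tables (blue, right) of each gene; points are tables and the line is the level of the summed tables. The siZBTB7A points of EZH1 and BMI1 lie above those of siNTC, those of EED, SUZ12 and RING1 lie below, and the points of the other 4 genes overlap.

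EZH2, the main methyltransferase of PRC2 in dividing cells, had nearly the same level in both libraries. Its level (gene ENSG00000106462, chromosome 7) was 37.5 and 30.3 CPM in the siZBTB7A tables, against 32.3 and 32.4 CPM in the siNTC tables. The siZBTB7A tables lay on either side of the siNTC tables. The fold was 1.04 (0.903 to 1.21) from 376 and 381 reads, with an edgeR adjusted p of 0.821. Counting error therefore leaves room for a level up to 1.21 times or down to 0.903 times the control. The log2 fold of EZH2 was 0.06, and it was -0.10 without the first siZBTB7A table.

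EZH1, the paralog of EZH2 that is known from resting and differentiated cells and has the weaker methyltransferase activity, had the largest fold of the 9 away from 1 on the higher side. Its level (ENSG00000108799, chromosome 17) was 17.0 and 14.3 CPM in the siZBTB7A tables, against 12.6 and 11.4 CPM in the siNTC tables. Both siZBTB7A tables lay above both siNTC tables. The fold was 1.31 (1.04 to 1.64) from 174 and 141 reads, and it was not called (edgeR adjusted p = 0.173). Within the pair, EZH2 took 68.4% of the reads of both genes in siZBTB7A (exact 95% interval 64.3% to 72.2%, 550 reads) and 73.0% in siNTC (69.0% to 76.8%, 522 reads). These intervals overlap, and the share needs no scaling between libraries.

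EED, the subunit that binds trimethylated lysine 27 and stimulates the enzyme, had the largest fold away from 1 on the lower side. Its level (ENSG00000074266, chromosome 11) was 19.0 and 18.8 CPM in the siZBTB7A tables, against 23.0 and 24.7 CPM in the siNTC tables. Both siZBTB7A tables lay below both siNTC tables. The fold was 0.791 (0.658 to 0.949) from 210 and 281 reads, and it was not called (edgeR adjusted p = 0.122). Its log2 fold of -0.34 stayed between -0.39 and -0.28 under the 15 alternative settings.

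SUZ12, the scaffold of PRC2 that holds the other subunits together, was the best counted of the 9. Its level (ENSG00000178691, chromosome 17) was 97.7 and 93.6 CPM in the siZBTB7A tables, against 102 and 107 CPM in the siNTC tables. The groups did not overlap, with both siZBTB7A tables below. The fold was 0.916 (0.843 to 0.995) from 1063 and 1228 reads, and it was not called (edgeR adjusted p = 0.238). SUZ12 shares sequence with the transcribed pseudogene SUZ12P1: of the 50-base words in its longest annotated transcript, 9.68% also occur in transcripts of SUZ12P1. Reads that map to both places are left out of the counts, so the count of SUZ12 is uncertain to that extent. SUZ12P1 itself had 232 and 237 reads, at a fold of 1.04 (0.861 to 1.25). The pseudogenes EZH2P1 and RNF2P1, which share 36 such words with EZH2 and 31 with RNF2, had 0 reads.

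JARID2, an accessory subunit that helps to recruit PRC2 to chromatin and lacks the demethylase activity of its protein family, had a low level in both libraries. Its level (ENSG00000008083, chromosome 6) was 14.6 and 16.3 CPM in the siZBTB7A tables, against 13.0 and 15.0 CPM in the siNTC tables. The tables overlapped. The fold was 1.10 (0.886 to 1.37), and the edgeR adjusted p was 0.701.

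The promoters of EZH2 and of the 4 genes past an unadjusted p of 0.05 are shown because ZBTB7A is a DNA-binding repressor and EZH2 and EED are known targets of E2F factors. Each line gives the 250 bases before the start of transcription, 5′ to 3′ on the gene's own strand, from RefSeq on GRCh38.p14. These are EZH2 at chr7:148884292-148884541 (minus strand), EZH1 at chr17:42745041-42745290 (minus strand), EED at chr11:86244503-86244752 (plus strand), SUZ12 at chr17:31936757-31937006 (plus strand) and BMI1 at chr10:22320849-22321098 (plus strand). Capitals mark matches, on either strand, to the ZBTB7A core motif GGACCC or to one of 4 words of the E2F motif (TTTGGCGC, TTTCCCGC, TTTGCCGC and TTTCGCGC). EZH2 and BMI1 have a second start in the same table that is not printed.
EZH2: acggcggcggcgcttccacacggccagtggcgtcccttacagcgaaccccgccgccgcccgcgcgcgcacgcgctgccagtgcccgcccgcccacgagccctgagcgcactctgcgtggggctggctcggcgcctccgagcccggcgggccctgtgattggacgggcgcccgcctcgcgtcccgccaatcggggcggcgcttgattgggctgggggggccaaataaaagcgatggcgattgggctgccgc
EZH1: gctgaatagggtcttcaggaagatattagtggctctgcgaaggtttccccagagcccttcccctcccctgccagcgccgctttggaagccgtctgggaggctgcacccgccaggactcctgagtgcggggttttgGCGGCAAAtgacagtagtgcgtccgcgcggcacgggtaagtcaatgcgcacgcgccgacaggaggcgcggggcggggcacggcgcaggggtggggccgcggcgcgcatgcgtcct
EED: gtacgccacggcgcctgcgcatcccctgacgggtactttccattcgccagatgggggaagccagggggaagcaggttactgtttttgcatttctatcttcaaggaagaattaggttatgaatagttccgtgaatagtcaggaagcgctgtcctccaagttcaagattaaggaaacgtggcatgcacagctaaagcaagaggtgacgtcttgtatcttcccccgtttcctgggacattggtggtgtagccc
SUZ12: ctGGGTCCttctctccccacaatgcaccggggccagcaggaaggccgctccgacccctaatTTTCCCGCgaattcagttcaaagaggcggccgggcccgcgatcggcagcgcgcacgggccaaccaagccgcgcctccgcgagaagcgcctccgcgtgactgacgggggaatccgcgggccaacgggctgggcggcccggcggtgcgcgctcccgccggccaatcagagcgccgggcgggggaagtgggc
BMI1: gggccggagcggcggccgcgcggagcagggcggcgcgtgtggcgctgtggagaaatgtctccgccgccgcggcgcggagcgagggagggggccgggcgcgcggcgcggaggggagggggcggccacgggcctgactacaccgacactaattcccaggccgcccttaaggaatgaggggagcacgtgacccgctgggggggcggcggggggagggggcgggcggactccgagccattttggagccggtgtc

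GGACCC, in either direction, was found in 3 of 11 promoter windows of the members, beside 20.6% of all 35116 windows in the table. The windows searched were 300 bases long, with 250 bases before the start and 50 from it. The 11 windows belonged to 8 of the 9 genes. The matches were in SUZ12, on the opposite strand at bases -248 to -243 from the start, in EZH1 at bases 8 to 13 after it, and in the second EZH2 window at bases -244 to -239. An E2F word was found in 3 of the 11 windows, beside 3.31% of all windows. These were TTTCCCGC in SUZ12 at bases -189 to -182, the reverse complement of TTTGCCGC in EZH1 at bases -115 to -108, and TTTGGCGC in EZH2 at bases 2 to 9. No match overlapped another. No match was found in these windows of EED, BMI1, JARID2, RING1 or RNF2, and CBX2 had no window.

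**Figure D2:**
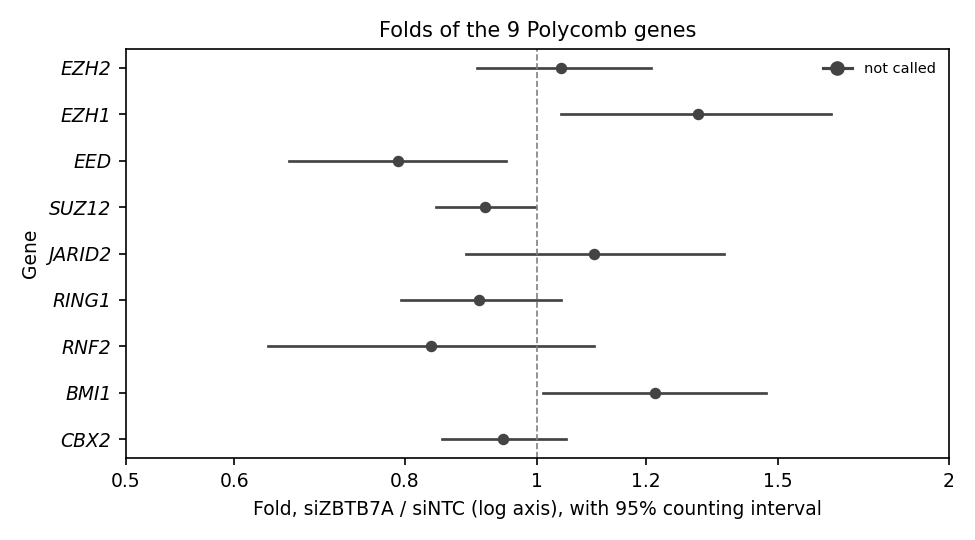
Fold of siZBTB7A over siNTC (horizontal log axis) for each of the 9 Polycomb genes; points are folds of the summed tables and lines their exact 95% counting intervals. The folds run from 0.791 for EED to 1.31 for EZH1, and no gene was called.

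In PRC1, the ubiquitin ligase RING1 was the more abundant of the 2 RING paralogs. Its level (ENSG00000204227, chromosome 6) was 36.9 and 38.6 CPM in the siZBTB7A tables, against 43.4 and 40.0 CPM in the siNTC tables. Both siZBTB7A tables lay below both siNTC tables. The fold was 0.907 (0.794 to 1.04), and the edgeR adjusted p was 0.468.

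RNF2, which encodes the main catalytic ligase RING1B, was the least counted of the 9 genes. Its level (ENSG00000121481, chromosome 1) was 9.69 and 7.96 CPM in the siZBTB7A tables, against 9.33 and 11.7 CPM in the siNTC tables. The tables overlapped. The fold was 0.836 (0.635 to 1.10) from 98 and 124 reads, with an edgeR adjusted p of 0.530, so the depth left the widest interval of the 9 relative to its fold. RNF2 took 18.9% of the reads of the RING pair in siZBTB7A (15.6% to 22.6%) and 20.2% in siNTC (17.1% to 23.6%).

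BMI1, the RING finger partner of RNF2 in canonical PRC1 and a repressor of the INK4a locus, stood on the higher side. Its level (ENSG00000168283, chromosome 10) was 21.9 and 23.2 CPM in the siZBTB7A tables, against 18.7 and 18.4 CPM in the siNTC tables. Both siZBTB7A tables lay above both siNTC tables. The fold was 1.22 (1.01 to 1.47) from 251 and 218 reads, and it was not called (edgeR adjusted p = 0.227). The read-through gene COMMD3-BMI1 overlaps 23.3% of the exon bases of BMI1 on the same strand. Reads inside that stretch are ambiguous in this counting layout and are left out, so the level of BMI1 is undercounted in all 4 tables. COMMD3-BMI1 and the pseudogene BMI1P1 were listed at 0 reads in each.

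CBX2, the chromobox subunit that reads trimethylated lysine 27 and compacts chromatin, was close to equal. Its level (ENSG00000173894, chromosome 17) was 64.6 and 59.3 CPM in the siZBTB7A tables, against 63.9 and 67.0 CPM in the siNTC tables. The tables overlapped. The fold was 0.944 (0.851 to 1.05), and the edgeR adjusted p was 0.624.

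Compared per exon length, the ligase gene RING1 and the scaffold gene SUZ12 stood first, and JARID2, EZH1 and RNF2 last. In CPM per kilobase of annotated exon, RING1 was at 20.8 in siZBTB7A and 22.9 in siNTC. SUZ12 followed at 14.6 in siZBTB7A and 15.9 in siNTC, CBX2 at 10.9 in siZBTB7A and 11.5 in siNTC, and EZH2 at 7.48 in siZBTB7A and 7.16 in siNTC. BMI1 was at 5.27 in siZBTB7A and 4.33 in siNTC. The counting intervals of neighbours in this order did not overlap from RING1 down to BMI1 in both libraries. EED was at 2.69 in siZBTB7A and 3.40 in siNTC, and its interval lay apart from that of BMI1 in siZBTB7A but not in siNTC. JARID2 was at 2.57 in siZBTB7A and 2.33 in siNTC, EZH1 at 2.24 in siZBTB7A and 1.71 in siNTC, and RNF2 at 2.16 in siZBTB7A and 2.59 in siNTC. In siZBTB7A, the intervals of EED, JARID2, EZH1 and RNF2 all overlapped, so their order is not resolved. In siNTC, neighbours among these 4 overlapped, but EED lay apart from JARID2 and EZH1, and RNF2 lay apart from EZH1. These levels rest on the union of all annotated exons, which is long for genes with many annotated transcripts. With the longest annotated transcript in its place, the level of EED was 6.83 in siZBTB7A and 8.63 in siNTC, and that of EZH2 was 9.29 in siZBTB7A and 8.89 in siNTC. That put EED before BMI1, with overlapping intervals in siZBTB7A and separate ones in siNTC. It also brought RING1 and SUZ12 together, with overlapping intervals in both libraries: RING1 was at 21.6 in siZBTB7A and 23.8 in siNTC, and SUZ12 at 21.3 in siZBTB7A and 23.2 in siNTC. Over only those exon bases of BMI1 that it does not share with COMMD3-BMI1, its level was 6.88 (6.05 to 7.78) in siZBTB7A and 5.64 (4.92 to 6.44) in siNTC. On that length BMI1 overlapped with EZH2 in siZBTB7A and not in siNTC.

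**Figure D3:**
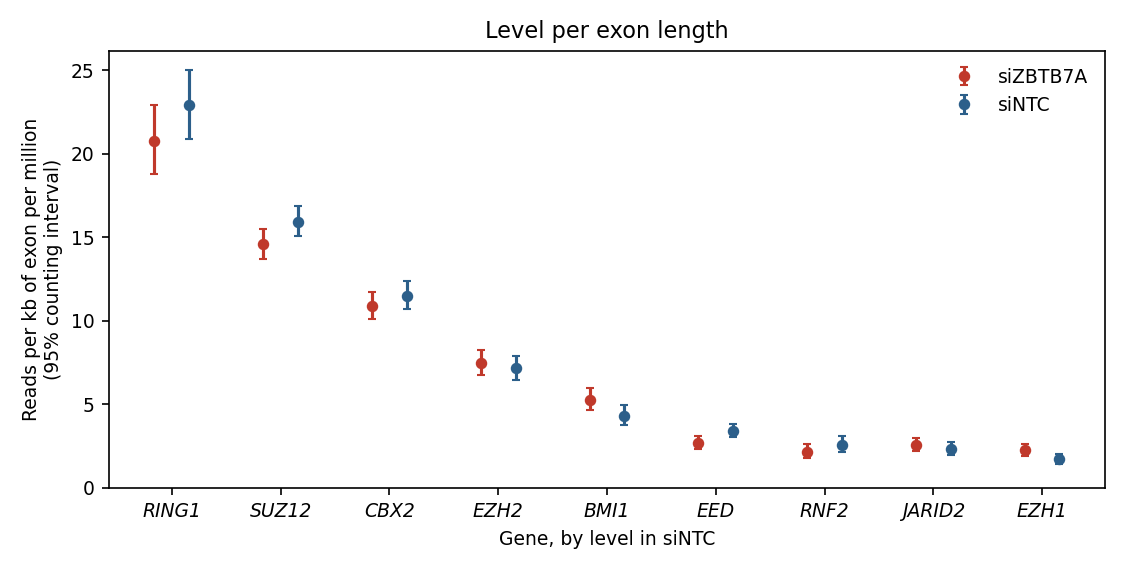
Level of each Polycomb gene in CPM per kilobase of annotated exon (vertical axis), in siZBTB7A (red, left) and siNTC (blue, right), with exact 95% counting intervals. Genes are ordered by their level in siNTC, from RING1 at 22.9 to EZH1 at 1.71.

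Of the remaining Polycomb genes, 1 was higher and 2 were lower. The list held 41 accessory subunits and antagonists of both complexes, all matched, of which 39 were abundant enough to test, and their median log2 fold was -0.06 beside 0.0008 over all genes tested. The 3 calls are 1 of 39 higher and 2 of 39 lower, beside 2.25% and 2.72% of all genes. EZHIP, an inhibitor of PRC2, and ASXL3 had no read in any table.

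Among the PRC2 accessory genes, LCOR was lower. LCOR encodes a nuclear receptor corepressor and, from a longer transcript, the PRC2 cofactor PALI1. It was at 57.1 and 54.7 CPM in the siZBTB7A tables, against 75.7 and 74.1 CPM in the siNTC tables. The fold was 0.746 (0.672 to 0.828), with an edgeR adjusted p of 1.55e-05 (DESeq2 gave none), and a gene count cannot tell its transcripts apart. PHF19, a Polycomb-like protein that guides PRC2 to methylated lysine 36, was higher, at 79.6 and 78.4 CPM in the siZBTB7A tables, against 64.3 and 67.9 CPM in the siNTC tables. Its fold was 1.19 (1.08 to 1.32), with an edgeR adjusted p of 0.0135. After a correction for GC content and length the adjusted p of PHF19 was 0.0548, and without the first siNTC table or the first or second siZBTB7A table it was 0.178, 0.110 or 0.0786. The other 7 tested genes of this list were not called, among them RBBP4 and RBBP7, the histone-binding subunits shared with NuRD, at 0.941 (0.878 to 1.01) and 1.02 (0.950 to 1.10).

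Of 23 PRC1 genes, 1 was lower and 0 were higher. MGA, a scaffold of the variant complex that contains E2F6, was at 204 and 211 CPM in the siZBTB7A tables, against 225 and 228 CPM in the siNTC tables. Its fold was 0.917 (0.867 to 0.970), with an edgeR adjusted p of 0.0469. With the GC and length correction the log2 fold of MGA was -0.01 (adjusted p = 0.964), and it was not called when any of the 4 tables was left out (adjusted p = 0.0870 to 0.343), with DESeq2 (0.283), with no filter on low counts (0.106) or with unstranded counts (0.0504). Of the 23 folds, 9 were above 1 and 14 below. At an unadjusted p under 0.05 in edgeR, 4 stood on the lower side and 0 on the higher. Over all genes tested these shares were 8.9% lower and 9.02% higher. The 4 were MGA and PHC3, SCML2 and BCOR. PHC3, SCML2 and BCOR, named after their values were seen, were not called, at 0.852 (0.760 to 0.955), 0.787 (0.645 to 0.959) and 0.874 (0.786 to 0.972). PHC3 was called lower with unstranded counts, and BCOR without the first siNTC table. The chromobox paralogs CBX6, CBX7 and CBX8 were also not called, with folds of 1.03, 0.875 and 1.01.

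Of the 7 tested genes that oppose Polycomb marks, 0 were called by edgeR, beside 4.97% of all genes tested. Only 1, BAP1, had an unadjusted p under 0.05 in edgeR, beside 17.9% of all genes tested. Over all 39 other Polycomb genes, limma-voom and the exact binomial test gave the same count of calls as edgeR. The genes that oppose Polycomb marks are H3 lysine 27 demethylases, H2A deubiquitinases and their partners. The 3 with the most reads were BAP1 at 1.10 (1.02 to 1.19), USP16 at 1.03 (0.947 to 1.12) and ASXL1 at 0.929 (0.855 to 1.01).

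**Figure D4:**
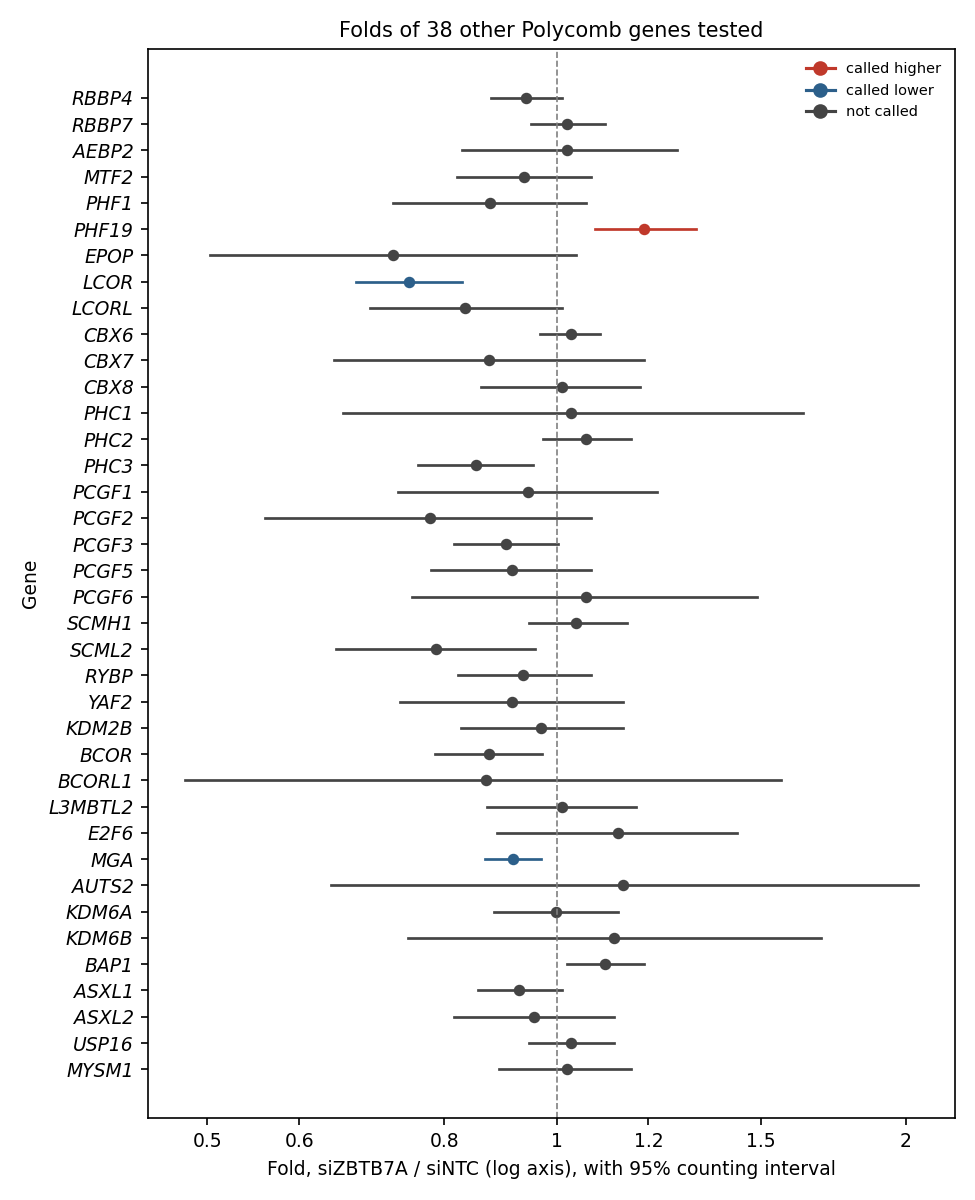
Fold of siZBTB7A over siNTC (horizontal log axis) for 38 of the 39 other Polycomb genes tested, with exact 95% counting intervals; red marks a gene called higher, blue a gene called lower and grey a gene not called. PHF19 is at 1.19, LCOR at 0.746 and MGA at 0.917, and the other 35 are grey.

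Genes reported elsewhere as silenced by EZH2, mostly in cancer cells, were listed with the complexes. Of 12, 7 could be tested, 1 was higher and 0 were lower, and their median log2 fold was 0.16, beside 2.25% higher, 2.72% lower and a median of 0.0008 over all genes tested. PEBP1, which encodes the Raf kinase inhibitor RKIP, was at 550 CPM in both siZBTB7A tables, against 483 and 504 CPM in the siNTC tables. The fold was 1.11 (1.07 to 1.15), with an edgeR adjusted p of 7.34e-06. Those tested and not called included DAB2IP at 0.906 (0.768 to 1.07), CDH1 at 0.937 (0.878 to 0.9998), TIMP2 at 1.29 (0.936 to 1.78), CDKN1C at 1.12 (0.796 to 1.57) and FBXO32 at 1.38 (0.971 to 1.97). SLIT2 and MSMB had 1 read in each of the 4 tables, KLF2 had 5 reads in siZBTB7A and 2 in siNTC, and TIMP3 and RUNX3 had none.

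**Figure D5:**
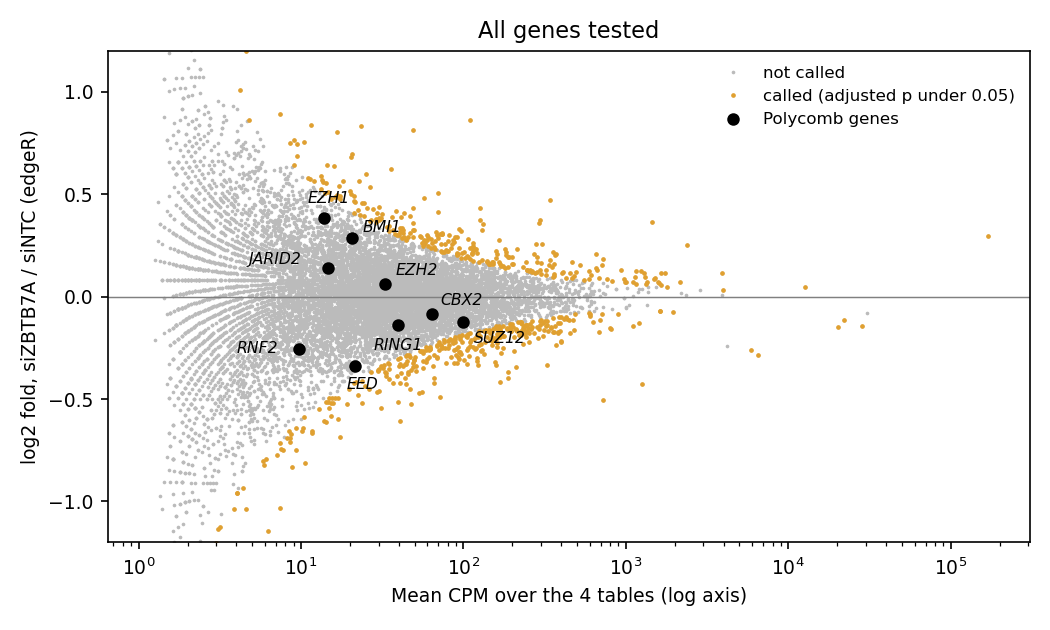
Log2 fold of siZBTB7A over siNTC (vertical axis, edgeR) against mean CPM over the 4 tables (horizontal log axis) for the 12848 genes tested, of which 41 lie outside the plotted range; orange marks called genes and black the 9 Polycomb genes. All 9 black points lie within the grey cloud of genes that were not called, between -0.34 and 0.38.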

How the data were processed

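RNA-seq was measured in 4 tables of VCaP cells, 2 each for siZBTB7A and siNTC. The authors deposited unnormalised counts of reads for each gene, in the layout of STAR gene counts. The submitters' processing notes list STAR 2.4.2a, hg19 and GRCh37, and no source used here gives the release of the annotation. The library kit was stranded, per the labels' protocols, and the count in column 4 was used. Rows that name no gene held 50.8% to 51.2% of reads and were left out. Genes were named from GENCODE 29 by Ensembl number (55698 of 60308 identifiers), which is on GRCh38 and also gave lengths and GC content. Levels per length are therefore approximate. The labels do not say that the tables came from separate cultures.

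The fit was edgeR 4.0.16 in R 4.3.3 (quasi-likelihood, robust, TMM, filterByExpr, group as the only term), with Benjamini-Hochberg adjustment over 12848 genes. It was tested on simulated data. Folds were taken from the summed tables, scaled by TMM, and have exact 95% intervals by the Clopper-Pearson method. Alternatives used DESeq2 1.42.0, limma 3.58.1 (voom), scipy 1.17.1, other filters and scalings, unstranded counts, the replicate number as a block, each table left out, and a spline with 4 degrees of freedom each on GC content and length. The members, lists and alternatives were chosen with earlier results of these data known. All 9 members, ZBTB7A, called genes of the other lists (or the 3 with the most reads) and copies of members were named. Further listed genes that were not called were named outside this rule, among them PHC3, SCML2 and BCOR after their values were seen. No genes of like pattern were named, since 2 libraries give 1 fold per gene. Among the 4 marker lists, the 3 endothelial markers (2 matched) had 9 reads in siZBTB7A and 4 in siNTC, and the 4 fibroblast markers 158 and 191, nearly all from LUM. No protein sequences were used here. Values of 2 listed genes are not reported here, but both genes stay in the fits and in the counts and medians of their lists.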

Additional observations from a re-analysis of the deposited data

Results flagged for a closer look

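Reads that the counting placed in no gene feature (column 4), which no comparison above uses, made up 23.15% of the reads in siZBTB7A (exact 95% interval 23.13% to 23.17%), against 20.59% in siNTC (20.58% to 20.61%). This share can include intronic reads of the Polycomb genes, which cannot be separated from these tables, and its part in their folds was not tested.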

How the results depend on the processing

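None (0) of the 9 Polycomb genes was called under any of the 15 alternatives, and 134 of their 135 folds kept their sign. The exception was EZH2, at a log2 fold of -0.10 without siZBTB7A replicate 1 and 0.21 without replicate 2. The count of 639 genes called stayed within 1.5 times except with DESeq2 (85), the GC and length correction (364) and without 1 table (303 to 373), where fewer reads were tested. The 3 calls among other Polycomb genes became 0 with DESeq2, 1 with the GC and length correction and 1 to 2 without 1 table. LCOR was among the calls under each of these but DESeq2. Without siNTC replicate 1 the calls were LCOR and BCOR, and BCOR was not among the original 3. With unstranded counts PHC3 took the place of MGA. The cause was not tested for the correction, for the fits without 1 table, or for the adjusted p values that DESeq2 did not give. DESeq2 gave no adjusted p for 11707 genes, among them all 9 members, LCOR and PHF19, so it could call none of these. MGA had an adjusted p of 0.283 with DESeq2 and was not called. The replicate block called 654 genes and again 0 members and 3 other Polycomb genes, and it changed no call among the genes named. Over 5492 genes, tables with the same number deviated from their group means with a correlation of -0.0136. Tables of a group differed by no more than sampling noise, so this value cannot decide whether tables of the same number were paired. The list of reported EZH2-repressed genes had 1 call under every alternative. The other 2 lengths used for the levels, the longest transcript and the unshared exon bases, were chosen after seeing the data. With 98 to 1228 reads per member and group, folds nearer to 1 than the intervals given could not be resolved.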
